A study of Mus musculus with 7 samples.

Results

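Pax6, Sox1, Otx2, Neurog2, Olig2, Neurod1, Nkx6-2 and Nes, 8 neural fate genes listed by name, were examined for binding of Oct1 and Oct4 in mouse embryonic stem cells (ESCs) and in cells on the way to mesoderm. They are 8 of the 21887 protein-coding genes of the RefSeq table used here. The data were chromatin immunoprecipitation followed by sequencing (ChIP-seq), given as 1 list of peaks per library, and a peak was assigned to a gene when it touched the gene body or the 10 kb, or in a wider reading the 50 kb, on either side. There were 4 groups with 1 library each, all of cells labelled Parental in genotype. Both factors were mapped before differentiation, and Oct1 was mapped again on day 3 and on day 6 of the mesodermal protocol. The differentiating cells received Bmp4 for 2 days, followed by Rspo3 and LDN-193189 for 4 days in a different medium, so that day 3 falls after the change of medium and day 6 at its end. The 3 input libraries were not used here. The lists hold no expression values, so the identity of the cells was not checked against markers, and binding in a few cells cannot be told apart from weaker binding in many.

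Oct1 and Oct4, the products of Pou2f1 and Pou5f1, bind DNA through a POU domain and recognise an 8-base element, the octamer. Oct1 is present in most cell types, whereas Oct4 is a core factor of pluripotency. Neural fate genes are an alternative programme for cells that enter mesoderm, and in ESCs they are typically kept silent but inducible. The comparison asks where Oct1 lies at such genes before and during differentiation towards another lineage, and whether those places are Oct4 sites in ESCs.

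The lists held 17709 Oct1 peaks and 22817 Oct4 peaks in ESCs, 4867 Oct1 peaks at day 3 and 7758 Oct1 peaks at day 6. Each peak carried a score from the authors, a whole number without a stated unit, which is given here with its rank and percentile within its own list. Scores of different lists were not compared, and the read depth behind them is unknown. With 1 library per group there is no replicate error and no test between groups, so the values below describe these libraries. Coordinates are those of the authors' lists with each start converted here to 1-based counting (build mm10, the UCSC name of GRCm38).

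Within 10 kb, 7 of the 8 genes had a peak in at least 1 list, and the lists held different genes. Of all protein-coding genes, 36.5% had no peak in any list within 10 kb. In ESCs, Oct1 peaks lay at 5 genes (Pax6, Otx2, Neurog2, Olig2 and Nes), against 35.2% of all protein-coding genes with such a peak. Oct4 peaks lay at 6 genes (the same 5 and Nkx6-2), against 40.2% of all genes. At day 3 there were 3 genes with an Oct1 peak (Pax6, Sox1 and Neurog2; all genes 24.6%), and at day 6 there were 4 (these 3 and Nes; all genes 41.5%). The members' shares were thus 62.5% and 75.0% in the ESC lists, 37.5% at day 3 and 50% at day 6. With 8 genes, a single gene moves a share by 12.5 percentage points, so the day 6 share lies within a gene of the background and the day 3 share only slightly further from it. Among the 14277 genes no longer than Pax6, the longest member, the background was lower, at 30.1% and 35.2% for Oct1 and Oct4 in ESCs, 21.8% at day 3 and 37.7% at day 6. The ESC lists were also the longest. With every list shortened to its 4867 highest-scoring peaks, Oct1 within 10 kb was listed at 2 members in ESCs (all genes 16.3%), 3 at day 3 (24.6%) and 3 at day 6 (30.2%), and Oct4 at 3 (14.7%). Within the gene body alone, Oct1 was listed at 2 members in ESCs (all genes 23.9%), 3 at day 3 (17.7%) and 3 at day 6 (33.6%), and Oct4 at 1 (28.0%).

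**Figure D1:**
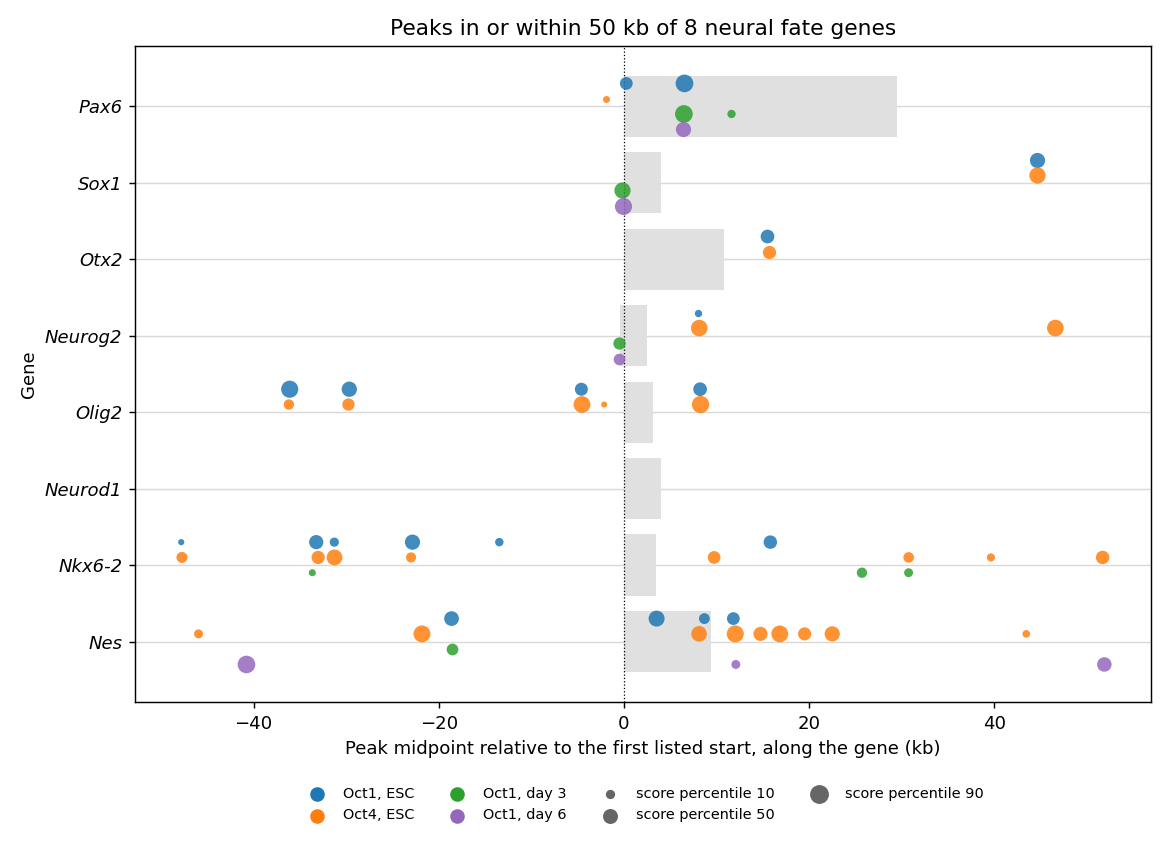
Positions of all peaks in or within 50 kb of the 8 genes, as kb from the first listed start in the direction of the gene. Points are peak midpoints, coloured by list and sized by score percentile within the list, and grey blocks are gene bodies. The day 3 and day 6 peaks of Sox1 and Neurog2 have midpoints within 1 kb of the start, while the ESC peaks of Otx2, Neurog2 and Olig2 lie away from it.

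The SoxB1 gene Sox1, one of the earliest markers of neuroectoderm, had Oct1 at its start in differentiating cells and no peak near it in ESCs. Sox1 (gene ID 20664) lies on the forward strand of chromosome 8 from 12395519 to 12399555. The day 3 peak spanned 12395021 to 12395680 with a score of 417 (rank 940 of 4867, percentile 80.7). The day 6 peak spanned 12394931 to 12395960 with a score of 1474 (rank 706 of 7758, percentile 90.9). Both covered the annotated start, with midpoints 169 and 74 bp before it. In ESCs neither the Oct1 nor the Oct4 list had a peak within 10 kb. The nearest ESC peaks formed a shared site 40266 bp (Oct1) and 40236 bp (Oct4) beyond the end of the gene, with an Oct1 score of 156 (percentile 69.7) and an Oct4 score of 217 (percentile 81.2), and Sox1 was the closest protein-coding gene to it. Within 100 kb of Sox1 the ESC lists held 9 Oct1 peaks (mean over all genes 3.17) and 9 Oct4 peaks (4.24), and the shorter later lists held 2 Oct1 peaks at day 3 (1.12) and 1 at day 6 (1.94). Sox1 was the closest protein-coding gene for 3 of the 9 peaks in each ESC list, and A230072I06Rik or Spaca7 for the rest.

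The promoter window of Sox1, from 250 bases before to 50 bases after the start, is shown because the later Oct1 peaks covered all 300 of its bases and because it held an exact octamer (ATGCAAAT, in capitals), the only one among the 12 windows listed for the 8 genes. It was read from RefSeq, GRCm38.p6, chr8:12395269-12395568, forward strand.
Sox1 promoter: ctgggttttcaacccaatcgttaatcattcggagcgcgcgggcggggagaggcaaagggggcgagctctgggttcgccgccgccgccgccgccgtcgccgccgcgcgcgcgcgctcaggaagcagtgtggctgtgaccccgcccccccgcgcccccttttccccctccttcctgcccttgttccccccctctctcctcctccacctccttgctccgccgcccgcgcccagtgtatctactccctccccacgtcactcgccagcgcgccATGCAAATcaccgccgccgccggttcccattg

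The octamer began 18 bases after the start base and lay inside both the day 3 and the day 6 peak. Of all 32817 promoter windows of the same length, 1.74% held the octamer on either strand. The share was 6.22% among the 1560 windows overlapping an ESC Oct1 peak, 2.40% among the 1209 overlapping an ESC Oct4 peak, 3.59% among the 3207 overlapping a day 3 peak and 1.44% among the 7013 overlapping a day 6 peak. A match of letters is not a measured site. The Sox1 window also had the highest GC content of the 12, at 70.7% with 37 CpG, where the median over all windows was 52.7% with 7 CpG. Windows overlapping a day 3 or day 6 peak had median GC contents of 65.7% and 65.3%, and the part of base composition in where the peaks lie was not tested.

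The paired-box gene Pax6, a regulator of neural tube and eye development, was the one member with the same Oct1 site in all 3 Oct1 lists within 10 kb or 50 kb. Pax6 (gene ID 18508) lies on the forward strand of chromosome 2 from 105668896 to 105698410. The shared site was inside the gene, with midpoints 6544 bp (ESCs), 6479 bp (day 3) and 6364 bp (day 6) past the first listed start. In ESCs its peak spanned 105675171 to 105675710 with a score of 1232 (rank 276 of 17709, percentile 98.4). At day 3 it spanned 105675021 to 105675730 with a score of 2120 (rank 98 of 4867, percentile 98.0). At day 6 it spanned 105674791 to 105675730 with a score of 791 (rank 2385 of 7758, percentile 69.3). It was thus among the strongest sites of the ESC and day 3 Oct1 lists and in the upper part of the day 6 list, and no Oct4 peak overlapped it.

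The other peaks of Pax6 within 10 kb or 50 kb were present in 1 list each and were weaker. An ESC Oct1 peak covered the first listed start (105668551 to 105669760, score 100, percentile 46.6). The only Oct4 peak within 10 kb lay upstream of the gene, with its midpoint 1946 bp before the start, and had a score of 71 (rank 21065 of 22817, percentile 7.55). A second day 3 peak inside the gene, 1943 bp before the second listed start, had a score of 77 (percentile 14.7). Whether these sites are exonic or intronic is not known, since the gene table used here gives no exons. Pax6 was also the one gene of the 8 whose start was covered by Oct1 in ESCs and not later.

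**Figure D2:**
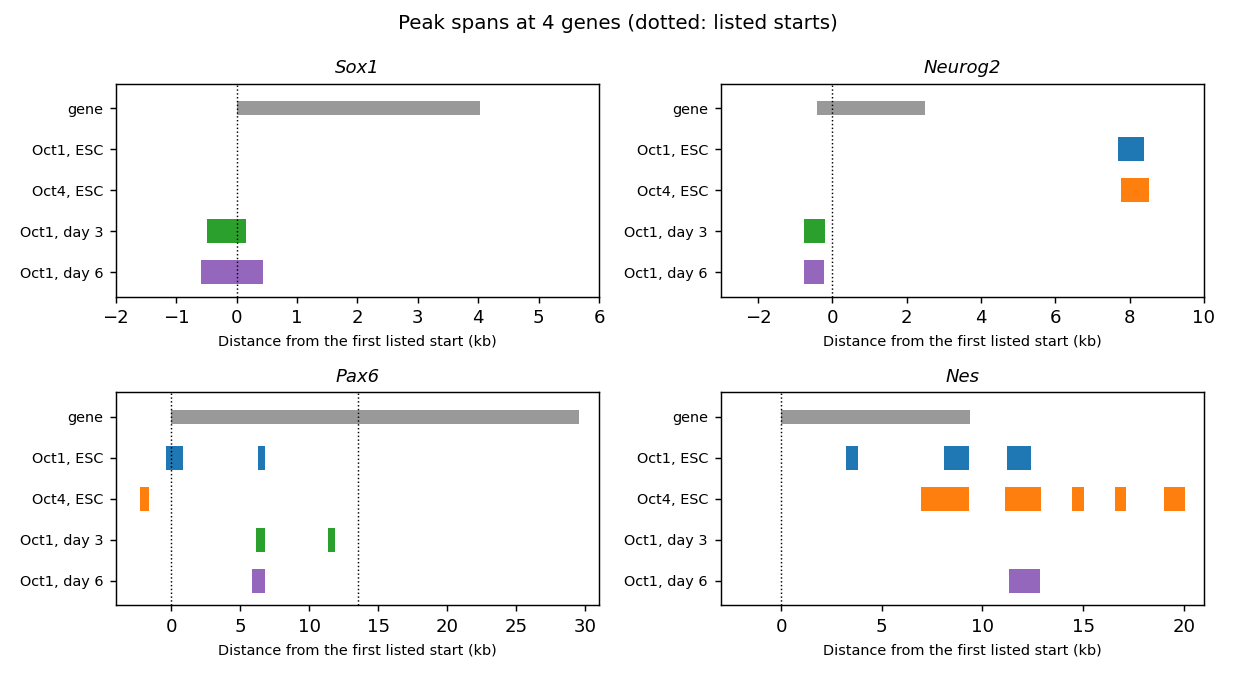
Peak spans at Sox1, Neurog2, Pax6 and Nes in kb from the first listed start (dotted lines mark listed starts, grey bars the gene). Each coloured bar is a peak of the list named on the axis, drawn to scale. Sox1 and Neurog2 carried peaks within 1 kb of the start only on days 3 and 6, and Pax6 carried a shared site inside the gene in the 3 Oct1 lists.

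The homeobox gene Otx2, which specifies forebrain and midbrain and also acts as ESCs leave the naive state, had peaks in ESCs only. Otx2 (gene ID 18424) lies on the reverse strand of chromosome 14 from 48656781 to 48667644. A single site beyond the end of the gene carried an Oct1 peak (48651941 to 48652530, score 114, percentile 55.2) and an overlapping Oct4 peak (48651411 to 48652490, score 146, percentile 50.8). The scores were near the middle of their lists. No other peak of any list lay within 100 kb of Otx2, so at day 3 and day 6 the whole region was without a listed Oct1 peak. The later lists are short, with means over all genes of 1.12 (day 3) and 1.94 (day 6) peaks within 100 kb. The share of genes without a later Oct1 peak in that window was not counted.

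The proneural gene Neurog2, a basic helix-loop-helix factor that drives neuronal differentiation, had Oct1 at a different place in ESCs and in differentiating cells. Neurog2 (gene ID 11924) lies on the forward strand of chromosome 3 from 127632733 to 127635636. In ESCs, a weak Oct1 peak (127640831 to 127641530, score 53, rank 15674 of 17709, percentile 9.57) lay 5195 bp beyond the end of the gene. It overlapped an Oct4 peak (127640891 to 127641660, score 236, percentile 85.0). At day 3 that site had no peak, and a peak lay instead over the upstream end of the gene record (127632371 to 127632940, score 163, percentile 42.6). At day 6 the peak was at the same place (127632381 to 127632920, score 375, percentile 37.6). The midpoints of the later peaks lay 481 and 486 bp before the listed start, and neither list placed them among its stronger sites.

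The promoter window of Neurog2 is shown because the later peaks ended inside it, in contrast to Sox1, where they covered the window whole. The day 3 peak covered 55 and the day 6 peak 35 of its 300 bases, and capitals mark the 35 bases inside both. It was read from RefSeq, GRCm38.p6, chr3:127632886-127633185, forward strand.
Neurog2 promoter: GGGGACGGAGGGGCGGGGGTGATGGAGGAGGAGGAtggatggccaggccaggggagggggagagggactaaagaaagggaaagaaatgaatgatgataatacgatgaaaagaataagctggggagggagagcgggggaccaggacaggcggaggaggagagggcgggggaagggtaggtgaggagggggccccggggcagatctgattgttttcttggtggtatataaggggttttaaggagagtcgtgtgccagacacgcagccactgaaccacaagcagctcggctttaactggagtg

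No octamer was found in this window, which leaves the rest of the peaks unsearched, because no genome sequence was used here. The other proneural member, Neurod1, which acts later in neuronal differentiation, had no peak at all. Neurod1 (gene ID 18012; chromosome 2, 79452637 to 79456636, reverse strand) lacked a peak of any of the 4 lists within 100 kb. For the 10 kb window, 7988 of the 21887 genes (36.5%) likewise had no peak in any list. For 100 kb it was 3466 genes (15.8%).

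The motor neuron and oligodendrocyte determinant Olig2 was surrounded by ESC sites shared by both factors and had none later. Olig2 (gene ID 50913) lies on the forward strand of chromosome 16 from 91225550 to 91228677. Upstream, an Oct1 peak (91220701 to 91221210, score 101, percentile 48.7) overlapped an Oct4 peak (91220741 to 91221300, score 244, percentile 86.7). Downstream, an Oct1 peak (91233491 to 91234070, score 113, percentile 55.0) overlapped an Oct4 peak (91233511 to 91234150, score 303, percentile 93.0), the highest Oct4 percentile at any of the 8 genes within 10 kb. Another Oct4 peak close to the gene was weak (score 59, percentile 3.41) and had no Oct1 peak.

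Further out, 2 more shared sites lay upstream of Olig2, with Oct1 midpoints 36100 and 29665 bp before the start. Their Oct1 scores were 357 (percentile 91.6) and 157 (percentile 70.8), and their Oct4 scores were 107 (percentile 28.1) and 129 (percentile 42.6). Each percentile refers to its own list. All 4 Oct1 peaks within 50 kb overlapped an Oct4 peak. No day 3 or day 6 Oct1 peak lay within 100 kb (means over all genes 1.12 and 1.94). The ESC lists held 7 Oct1 and 9 Oct4 peaks there (means over all genes 3.17 and 4.24).

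The Olig2 promoter window is shown as the only other window of the 8 genes with letters close to an octamer. It holds ATGCTTAT (in capitals), a match to the looser form ATGCNNAT in which 2 bases are free and which includes the octamer itself. It was read from RefSeq, GRCm38.p6, chr16:91225300-91225599, forward strand.
Olig2 promoter: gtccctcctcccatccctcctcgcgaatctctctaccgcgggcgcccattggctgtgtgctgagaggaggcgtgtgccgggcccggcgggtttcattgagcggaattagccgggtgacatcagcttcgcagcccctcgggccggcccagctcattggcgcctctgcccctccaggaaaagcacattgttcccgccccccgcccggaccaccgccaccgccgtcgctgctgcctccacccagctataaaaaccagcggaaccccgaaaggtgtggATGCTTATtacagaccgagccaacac

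No list had a peak over this window, and 8.94% of all promoter windows held the looser form on either strand. The palindrome GTCTAGAC, a known binding element of Smad factors, was in none of the 12 member windows and in 0.213% of all windows. Listed starts on the 12 windows numbered 4 for Otx2, 2 for Pax6 and 1 for each of the other genes.

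The homeobox gene Nkx6-2, expressed in ventral neural progenitors, had a peak within 10 kb only in the Oct4 list. Nkx6-2 (gene ID 14912) lies on the reverse strand of chromosome 7 from 139579376 to 139582797. That peak (139572711 to 139573390, score 136, percentile 46.1) lay 5986 bp from the gene and inside the neighbour Inpp5a. Within 50 kb, Oct1 had 6 peaks in ESCs, 3 at day 3 and none at day 6, while Oct4 had 8. All 17 were closer to Inpp5a or Cfap46 than to Nkx6-2, so the window rule, and not proximity, ties them to this gene. The day 3 peaks were weak, with scores of 61, 87 and 110 (percentiles 7.82, 18.3 and 27.4).

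Nes, which encodes the intermediate filament nestin of neural progenitors, had the most peaks of the 8 genes within 10 kb. Nes (gene ID 18008) lies on the forward strand of chromosome 3 from 87971093 to 87980451. Within 10 kb there were 3 ESC Oct1 peaks, 5 ESC Oct4 peaks, none at day 3 and 1 at day 6. The strongest ESC Oct1 peak lay inside the gene (87974321 to 87974930, score 193, percentile 78.1) and had no Oct4 peak. A second one inside the gene (87979161 to 87980410, score 80, percentile 31.1) was overlapped by a broad Oct4 peak of 2390 bp (score 192, percentile 74.1).

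The site just past the 3' end of Nes was the one member site within 10 kb with both factors in ESCs and Oct1 again later. There the ESC Oct1 peak (87982321 to 87983510) scored 100 (percentile 46.6) and the Oct4 peak (87982231 to 87984010) scored 271 (percentile 90.1). The day 6 Oct1 peak (87982431 to 87983940) scored 187 (rank 6322 of 7758, percentile 18.5), in the lower part of its list. The remaining 3 Oct4 peaks lay closer to Bcan, which encodes the proteoglycan brevican. Within 50 kb, the highest day 6 score (2142, rank 250, percentile 96.8) belonged to a peak with its midpoint in Isg20l2. Another day 6 peak (score 689, percentile 62.9) lay in Hapln2. The single day 3 peak within 50 kb (score 144, percentile 38.1) lay in Crabp2, a retinoic acid binding protein gene, at a site with an ESC Oct1 peak (score 142, percentile 64.7).

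**Figure D3:**
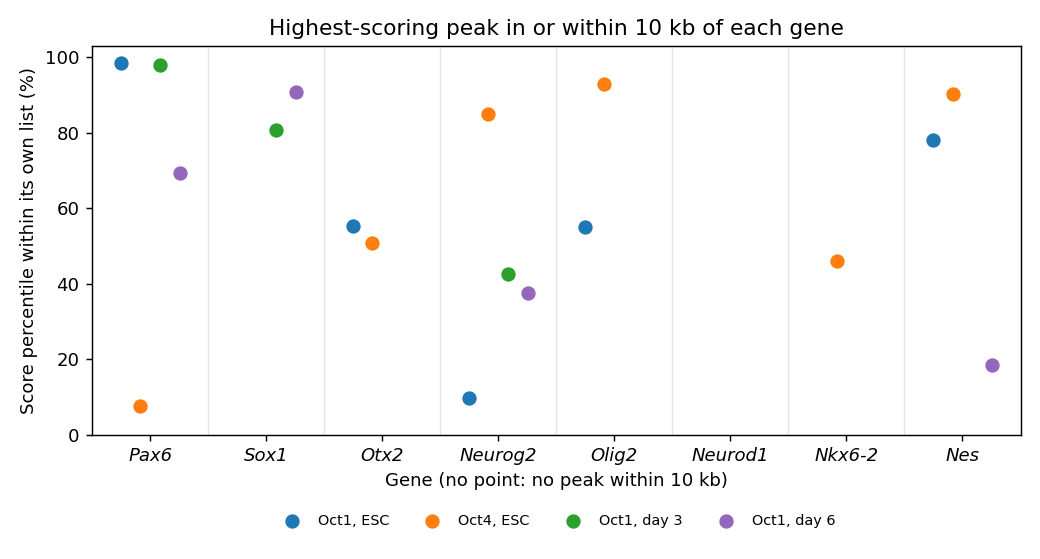
Score percentile, within its own list, of the highest-scoring peak in or within 10 kb of each gene, by list. The Pax6 points for Oct1 in ESCs and at day 3 stand at 98.4 and 98.0, Sox1 has points for day 3 and day 6 only, and Neurod1 has none.

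Taking the 8 genes as a set, peaks within 10 kb spread over most of the score range of each list. The 9 ESC Oct1 peaks ran from percentile 9.57 to 98.4 with a median of 48.7, and the 12 Oct4 peaks from 3.41 to 93.0 with a median of 66.6. The 4 day 3 peaks ran from 14.7 to 98.0 (median 61.6) and the 4 day 6 peaks from 18.5 to 90.9 (median 53.4). The highest 10% of scores included 1 ESC Oct1 peak and 1 day 3 peak, both at Pax6, 1 day 6 peak, at Sox1, and 2 Oct4 peaks, at Olig2 and Nes. The farthest peak counted was an Oct4 peak 9640 bp from Nes (score 142) and the nearest one left out an ESC Oct1 peak 12136 bp from Nkx6-2 (score 111). With a 5 kb window, ESC Oct1 and Oct4 were each listed at 4 members, and the later counts were unchanged. With 20 kb, ESC Oct1 was listed at 6 members and day 3 Oct1 at 4, and the other counts were unchanged. The shares of all genes in these windows were not counted.

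Of the 9 ESC Oct1 peaks within 10 kb, 6 overlapped an Oct4 peak, beside 59.1% of all ESC Oct1 peaks. A day 3 Oct1 peak overlapped 1 of the 9 (all peaks 8.88%), and a day 6 peak overlapped 2 (all peaks 6.66%). Seen from the later lists, 3 of the 4 day 3 peaks overlapped a day 6 peak (all peaks 58.5%), and 3 of the 4 day 6 peaks overlapped a day 3 peak (all peaks 36.6%). Merged over lists, the peaks within 10 kb formed 18 sites. Of these, 6 had Oct4 alone and 5, at Nes, Neurog2, Olig2 and Otx2, had both factors in ESCs and no peak later. Oct1 at day 3 and day 6 alone was found at 2 sites, over the start of Sox1 and close to, but not over, the listed start of Neurog2. Merged sites were not counted over the whole lists. Whether these combinations are usual among all sites is therefore not known, and the counts describe the members only.

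In distance from a start, 1 of the 9 ESC Oct1 peaks (at Pax6) and none of the 12 Oct4 peaks had the midpoint within 1 kb of a listed start. At day 3 and at day 6 it was 2 of 4 peaks, at Sox1 and Neurog2. The same contrast was present over the series, where on the chromosomes with listed starts the share of peaks within 1 kb of a start was 9.40% for Oct1 and 6.57% for Oct4 in ESCs, then 52.4% (day 3) and 70.0% (day 6) for Oct1. Counted by gene, 6.78%, 5.49%, 14.8% and 31.8% of the 17492 protein-coding genes with a listed start had such a peak in the same order of lists. The 2 of 8 members with a later peak within 1 kb of the start therefore match the general distribution of later Oct1 peaks to within a gene or so, and nothing here sets the members apart in this respect.

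Within 50 kb, Oct1 peaks in ESCs were listed at 7 of the 8 genes (all genes 58.7%) and Oct4 peaks at 7 (62.5%), Neurod1 being the exception for both. At day 3 Oct1 peaks lay at 5 genes (41.5%), and at day 6 at 4 (57.9%). The mean number of Oct1 peaks per member was 2.38 in ESCs (all genes 1.84), 1 on day 3 (0.674) and 0.75 on day 6 (1.19), and for Oct4 it was 3.38 (2.47). The member was the closest protein-coding gene for 12 of the 19 ESC Oct1 peaks, 11 of the 27 Oct4 peaks, 4 of the 8 day 3 peaks and 4 of the 6 day 6 peaks. The day 3 and day 6 peaks that the wider window added were without exception closest to neighbours of Nes or Nkx6-2.

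The combination of lists at each gene was compared with that at all genes. Pax6 and Neurog2 had a peak within 10 kb in all 4 lists, like 2010 genes (9.18%). Otx2 and Olig2 had both ESC lists and nothing later, like 2209 genes (10.1%). Nes lacked only day 3 (1560 genes, 7.13%), Nkx6-2 had Oct4 alone (1150 genes, 5.25%) and Sox1 had day 3 and day 6 alone (1529 genes, 6.99%). The 8 genes therefore showed 6 different combinations, and none was rare in the genome.

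Another 39 neural genes, listed with earlier results of these data known, were set beside the members. Within 10 kb, Oct1 was listed at 11 of them in ESCs (28.2%, all genes 35.2%) and 18 on day 3 (46.2%, all genes 24.6%). On day 6 it was listed at 21 (53.8%, all genes 41.5%), and Oct4 in ESCs at 16 (41.0%, all genes 40.2%). Oct1 in differentiating cells without an ESC Oct1 peak, the order seen at Sox1, was found at 17 of the 39 genes, at 1 of the 8 members and at 23.0% of all genes. The 39 genes included 7 with the same lists as Sox1, among them Sox2, Nkx6-1 and Lhx2. Nkx6-1, a close relative of Nkx6-2, had a day 6 score of 985 (percentile 77.9). Sox2, of the same SoxB1 group as Sox1, had a day 6 score of 957 (percentile 76.6), and Lhx2 one of 524 (percentile 51.3).

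Neurog1, the closest relative of Neurog2, had peaks in all 4 lists like it, but at other strengths. Its highest scores were 993 in ESCs (percentile 98.1), 1346 at day 3 (percentile 96.7) and 1560 at day 6 (percentile 92.3) for Oct1, and 153 for Oct4 (percentile 55.8). Msi1, an RNA-binding protein of neural progenitors, also had all 4 lists, with a day 6 score of 895 (percentile 74.4). Hes5 and Zic1 had Oct1 in all 3 Oct1 lists and no Oct4 peak, with day 6 percentiles of 99.7 for both. The Pax6 site shared this lack of Oct4 and its high ESC and day 3 rank, but not the day 6 rank. A start was listed for 28 of the 39 genes, and 1 of these had an ESC Oct1 peak within 1 kb of it, 8 a day 3 peak and 11 a day 6 peak. Over all genes with a listed start, the shares were 6.78%, 14.8% and 31.8% in that order.

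**Figure D4:**
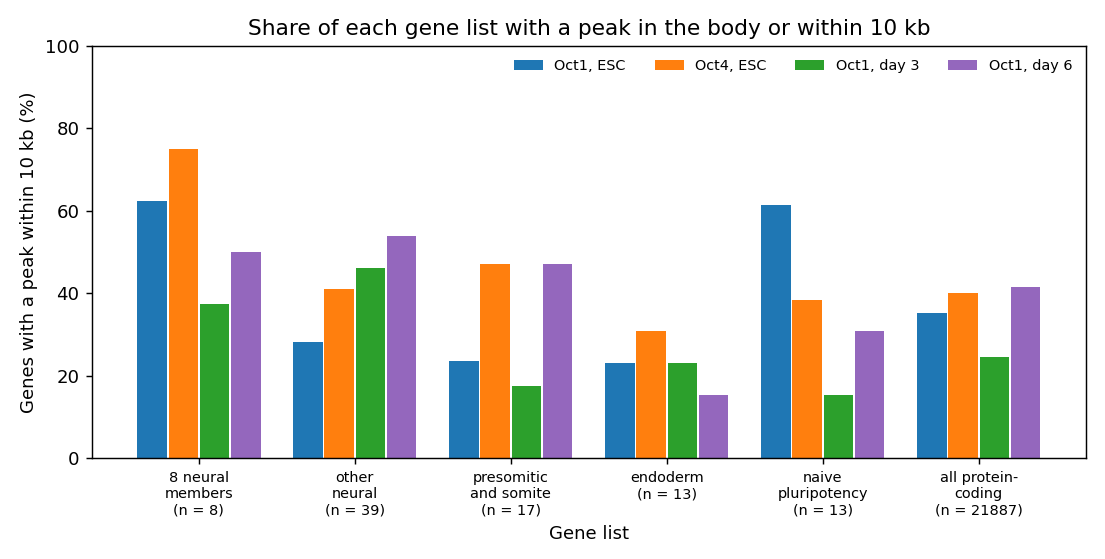
Share of the genes in each list with a peak in the body or within 10 kb, as bars from 0, for the 4 peak lists. The members show 62.5% and 75.0% in the ESC lists, above the 35.2% and 40.2% of all protein-coding genes, while each bar of the members rests on 8 genes.

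Gene lists of other fates were read in the same way. Over all protein-coding genes, Oct1 was listed within 10 kb at 35.2% in ESCs, 24.6% on day 3 and 41.5% on day 6. Some of the counts below lie near these shares, such as 47.1% of the presomitic and somite genes on day 6 and 23.1% of the endoderm genes on day 3. Of 17 presomitic and somite genes, Oct1 was listed within 10 kb at 4 in ESCs, 3 on day 3 and 8 on day 6, with the highest day 6 scores at Tbx6 (1506, percentile 91.5), Foxc2 (1178, percentile 84.6) and Dll3 (836, percentile 71.5). Of 13 endoderm genes, the other alternative fate, Oct1 was listed at 3 in ESCs, 3 on day 3 and 2 on day 6. The 2 at day 6 were Foxa2 (score 220, percentile 21.9) and Gata6 (score 137, percentile 12.2). Of 13 naive pluripotency genes, Oct1 was listed at 8 in ESCs, 2 on day 3 and 4 on day 6, the last including Klf4 (score 737, percentile 66.0), Klf2 (351, percentile 35.1) and Klf5 (345, percentile 34.5). The Sox1 percentile at day 6 (90.9) was near that of Tbx6, a determinant of presomitic mesoderm. Tbx6 was named because it had the highest day 6 percentile of its list, so this nearness carries no weight. The gene closest to each peak was not determined for these lists. These lists are short and were not tested against the members.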

How the data were processed

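Per the submitters' processing notes, Novoalign 3.8.2 was used with build mm10. The peak caller, its threshold and its control are not given in the sources used here. The deposited lists, 1 per library, give a score per peak that the authors state no unit for, and all peaks are at least 500 bp wide.

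Here, peaks were counted when at least 1 bp lay in a gene body or in the 10 kb or 50 kb beside it (pandas 2.3.3 and numpy 2.4.6 in Python 3.11.15; figures drawn by matplotlib 3.10.9). Gene counts equalled those of bedtools 2.31.1 for all 4 lists and both windows, and the counting was tested on simulated data. A percentile is the share of a list's peaks with a lower score, ties shared. Genes, and the promoter windows searched on both strands for motifs, came from RefSeq tables of GRCm38.p6, in which all 8 members were matched. The gene table gives no exons.

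The members and gene lists were chosen with earlier results of these data known. All members are named. Of the other neural genes, up to 8 were named by a rule: the same lists as a member, or a later Oct1 peak in the top 10% of scores, taken by day 6 and then day 3 percentile. The values of 1 gene that met this rule are not reported here. Of the other lists, 3 at most were named, by day 6 percentile. Other windows, score limits, overlap rules and a background of short genes were tried as alternatives. Depth is unknown, and no tests were made, as each group had 1 library.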

Additional observations from a re-analysis of the deposited data

How the results depend on the processing

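Of the 92 values obtained under the alternatives, 64 counts stayed within 1.5 times of the reported count and 14 did not. The other 14, percentages and percentiles, lay outside the 95% exact binomial interval (counting error only) of the reported value, some by little. The 64 include day 3 counts that shortening could not change, since that list is the shortest. They also include small counts that did move, such as Oct4 from 6 to 4 members with a 5 kb window. No paired analysis was possible because each group held 1 library. With the gene body only in place of 10 kb, 2 members had an ESC Oct1 peak and 1 an Oct4 peak. With every list shortened to its 4867 highest scores, Oct1 and Oct4 in ESCs lay at 2 and 3 members within 10 kb and at 3 and 4 within 50 kb (all genes 33.6% and 31.4%). With the higher-scoring 50% of each list, Oct1 and Oct4 in ESCs lay at 4 and 4 members within 10 kb (all genes 24.3% and 26.8%), against 2 at day 3 (15.0%) and 2 at day 6 (25.0%). Within 50 kb they lay at 6 and 6 (45.3% and 49.3%), against 2 (27.1%) and 3 (39.9%). Of the 4 ESC Oct1 peaks then within 10 kb and the 11 within 50 kb, 2 and 4 overlapped Oct4 (all such peaks 48.1%), 1 and 1 day 6 (4.45%) and 1 and 1 day 3 (8.08%). With only peaks closest to the gene, 3 members had a day 3 peak within 50 kb (all genes 18.4%). Among peaks at gene ends, the day 3 and day 6 percentiles were 75.7 and 89.6 for Sox1 and 27.9 and 30.3 for Neurog2. Unknown depth and threshold limit every comparison of numbers of peaks between lists.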
